A study of Mus musculus with 14 samples.

Results

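The HoxD cluster genes are the 9 members of a single gene array on mouse chromosome 2, Hoxd1, Hoxd3, Hoxd4, Hoxd8, Hoxd9, Hoxd10, Hoxd11, Hoxd12 and Hoxd13. They were chosen by symbol, and all 9 were found among the 23284 symbols counted in each library. Transcript levels were read in 14 RNA-seq libraries, each made from both forelimb buds of 1 mouse embryo (strain label NMRI). Wild-type embryos, which were Smad4+/+ PrxCreT/+, were analyzed at E10.0, the stage of 30 somites, and E10.5, that of 35 somites, with 3 embryos each. The mutants were Smad4Δ/Δc PrxCreT/+, with 4 embryos of each stage. They carry a constitutive null allele and a conditional allele that the Prrx1-driven Cre inactivates in limb bud mesenchyme, and the Cre transgene is present in every group. The Cre does not act in the ectoderm, and the study describes mesenchymal SMAD4 protein as cleared at about the earlier of these stages.

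HOX proteins are homeodomain transcription factors. In each vertebrate Hox cluster the genes lie in the order in which they are switched on, from the 3' end (Hoxd1) to the 5' end (Hoxd13), a relation called collinearity. In the early limb bud the 3' and central HoxD genes are active in the future upper arm and forearm, while the 5' genes are activated later and in the posterior mesenchyme under the influence of sonic hedgehog (SHH). SMAD4 is the common partner of receptor-activated SMAD proteins in BMP and TGFβ signal transduction.

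All 9 genes are transcribed from the plus strand of chromosome 2 (mm9), where Hoxd13 spans chr2:74506367-74509656 and Hoxd1, at the other end, chr2:74601037-74603200. Hoxd4 (chr2:74560035-74567217) lies inside the annotated span of Hoxd3 (chr2:74549986-74586331). RefSeq promoter windows, of 300 bases with 250 before and 50 after the transcription start, were available for every member, with 2 windows for Hoxd11, and each matched mm9 at exactly 1 position. Their transcription starts are those of RefSeq and can differ from the gene spans given here, which come from GENCODE. The Hoxd13 window, for example, ends before the Hoxd13 span begins. The windows of 2 genes whose transcripts rose with stage, Hoxd13 and Hoxd12, and of 2 whose transcripts fell, Hoxd9 and Hoxd8, are shown. Capitals mark the SMAD box GTCT, read as AGAC on the other strand, and the GC-rich SMAD element GGCGCC.
Hoxd13 promoter (chr2:74506032-74506331, plus strand): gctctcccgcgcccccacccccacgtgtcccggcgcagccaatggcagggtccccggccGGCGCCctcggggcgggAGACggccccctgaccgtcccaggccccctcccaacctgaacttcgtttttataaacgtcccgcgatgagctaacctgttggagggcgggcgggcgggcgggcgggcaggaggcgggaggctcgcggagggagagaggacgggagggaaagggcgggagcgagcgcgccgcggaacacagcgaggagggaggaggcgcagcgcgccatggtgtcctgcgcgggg
Hoxd12 promoter (chr2:74512820-74513119, plus strand): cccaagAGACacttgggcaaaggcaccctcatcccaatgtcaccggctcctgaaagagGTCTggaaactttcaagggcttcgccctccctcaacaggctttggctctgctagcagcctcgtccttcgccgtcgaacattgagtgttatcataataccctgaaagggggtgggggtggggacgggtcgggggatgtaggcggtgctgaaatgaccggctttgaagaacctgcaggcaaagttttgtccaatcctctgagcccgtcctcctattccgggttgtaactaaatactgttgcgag
Hoxd9 promoter (chr2:74535570-74535869, plus strand): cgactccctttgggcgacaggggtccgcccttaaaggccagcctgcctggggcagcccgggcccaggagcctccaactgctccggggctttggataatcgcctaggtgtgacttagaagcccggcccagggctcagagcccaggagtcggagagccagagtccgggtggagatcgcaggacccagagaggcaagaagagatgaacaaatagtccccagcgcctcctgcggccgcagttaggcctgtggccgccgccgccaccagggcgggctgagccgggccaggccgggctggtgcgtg
Hoxd8 promoter (chr2:74542422-74542721, plus strand): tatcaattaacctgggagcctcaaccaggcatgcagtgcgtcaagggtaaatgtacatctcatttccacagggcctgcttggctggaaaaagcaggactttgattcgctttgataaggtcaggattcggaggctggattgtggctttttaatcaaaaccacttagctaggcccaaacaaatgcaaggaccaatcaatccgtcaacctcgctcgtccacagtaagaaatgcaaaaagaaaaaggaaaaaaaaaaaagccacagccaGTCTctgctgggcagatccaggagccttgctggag
The Hoxd13 window was 74.3% G or C and held 37 CpG dinucleotides, the Hoxd9 window 68.3% and 20, the Hoxd12 window 55.0% and 13, and the Hoxd8 window 46.7% and 6. The median over all 32851 RefSeq promoter windows was 52.7% G or C. The SMAD box was present in 7 of the 10 HoxD windows and in 88.0% of all windows, and GGCGCC in 4 of the 10 and in 11.9% of all. Both strands were searched. The GLI site TGGGTGGTC was in 0 of the 10 HoxD windows and 0.253% of all, the letters TTTATNG, read here as a posterior HOX site, in 1 (Hoxd4) and 10.9%, and TATAAA in 2 (Hoxd13 and Hoxd4) and 13.6%. TTTATNG and TATAAA can share letters across strands. Such matches describe letters in a window and do not show binding.

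Between 34066930 and 61691258 reads per library were assigned to genes, of which 13130 to 25479 belonged to the HoxD genes. Levels are given as CPM (counts scaled to library size) after TMM normalization of the library sizes. Smad4 itself fell from 161 ± 8.43 CPM (SD, n=3) in wild-type to 39.8 ± 4.19 CPM (n=4) in mutant forelimb buds at E10.0, and from 166 ± 2.27 CPM (n=3) to 37.0 ± 3.43 CPM (n=4) at E10.5 (log2 fold changes -2.01 ± 0.08 and -2.16 ± 0.08, FDR = 3.49e-98 and 2.82e-112 in edgeR's exact test). The remaining Smad4 reads cannot be divided between tissue that keeps the gene and transcripts of the recombined allele. The forelimb label was matched by Tbx5, the forelimb T-box gene, at group means of 90.0 to 136 CPM, against 3.26 to 13.5 CPM for its hindlimb counterpart Tbx4 and at most 0.133 CPM for the hindlimb gene Pitx1. Rn45s, the ribosomal RNA precursor, took 1.72% to 8.05% of the reads in the 4 mutant libraries of replicates 4 and 5, and 0.151% to 0.478% in the other 10. Results that changed without those 4 libraries are given as such.

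**Figure D1:**
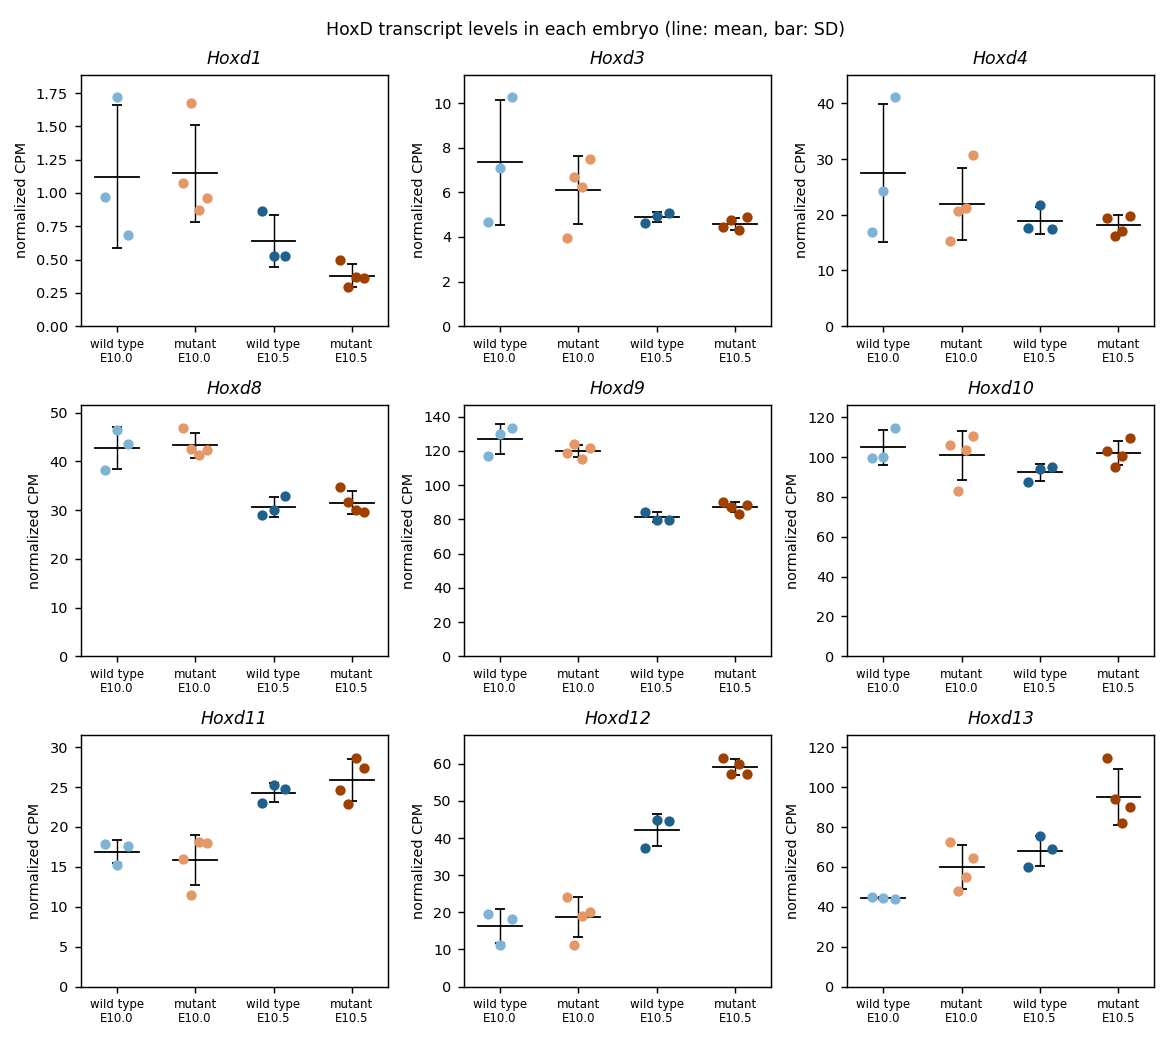
TMM-normalized CPM of each HoxD gene (vertical axes, starting at 0) in each of the 14 embryos (points), by genotype and stage (horizontal axis), with the group mean as a line and the SD as a bar. Hoxd13 is higher in every mutant than in every wild-type embryo of the same stage, and Hoxd8 and Hoxd9 are lower at E10.5 than at E10.0 in every embryo.

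The central genes Hoxd9 and Hoxd10 gave the most transcripts and Hoxd1 the fewest. Levels were compared between genes as CPM per kilobase of the longest annotated coding transcript, whose lengths ran from 1863 bases (Hoxd1) to 3850 bases (Hoxd11). In wild-type forelimb buds at E10.0, Hoxd9 stood at 58.1 ± 4.02 CPM per kb (SD, n=3) and Hoxd10 at 39.5 ± 3.25. Hoxd13 (17.9 ± 0.161), Hoxd8 (16.2 ± 1.61), Hoxd4 (10.7 ± 4.83), Hoxd12 (6.26 ± 1.74), Hoxd11 (4.38 ± 0.376), Hoxd3 (2.08 ± 0.793) and Hoxd1 (0.603 ± 0.287) followed in that order. Hoxd3 and Hoxd4 share 1725 annotated exon bases, and reads that fell on both genes were not counted. Their full lengths were used all the same, so their places in the order are uncertain and may be too low. The ranges over embryos of Hoxd8 and Hoxd4, of Hoxd4 and Hoxd12 and of Hoxd12 and Hoxd11 overlapped, so that these neighbours in the order were not separated by their spread. The order did not follow the position of the genes in the cluster, since Hoxd11 and Hoxd12, between Hoxd10 and Hoxd13, were lower than both. Hoxd12 had passed Hoxd8 at E10.5, with 16.1 ± 1.65 against 11.6 ± 0.762 CPM per kb in wild type, and the embryos of this pair did not overlap. In mutants at E10.5, Hoxd9 (40.0 ± 1.38), Hoxd10 (38.5 ± 2.31) and Hoxd13 (38.3 ± 5.60 CPM per kb, n=4) overlapped and had no order beyond their spread.

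Expressed as shares of the summed CPM per kb, the 5' genes Hoxd11 to Hoxd13 made up 18.4% ± 2.18 (SD, n=3) of HoxD transcripts in wild type at E10.0 and 34.9% ± 2.03 (n=3) at E10.5. Hoxd8 and Hoxd9 together went from 47.8% ± 2.30 to 34.3% ± 2.15, while Hoxd10 stood at 25.4% ± 0.764 and 24.4% ± 0.395. In mutants the share of Hoxd11 to Hoxd13 was 22.6% ± 3.09 (n=4) at E10.0 and 40.5% ± 1.59 (n=4) at E10.5. The embryos of the genotypes overlapped in this share at E10.0 (17.0% to 20.9% in wild type, 18.7% to 26.2% in mutants). They did not overlap at E10.5 (32.7% to 36.7% against 38.9% to 42.6%). The summed level was 156 ± 12.8 CPM per kb in wild type and 156 ± 11.1 in mutants at E10.0. At the later stage it was 143 ± 6.02 and 167 ± 8.77. These shares describe the composition and were not tested. They carry the uncertainty in the levels of Hoxd3 and Hoxd4, which share exons.

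**Figure D2:**
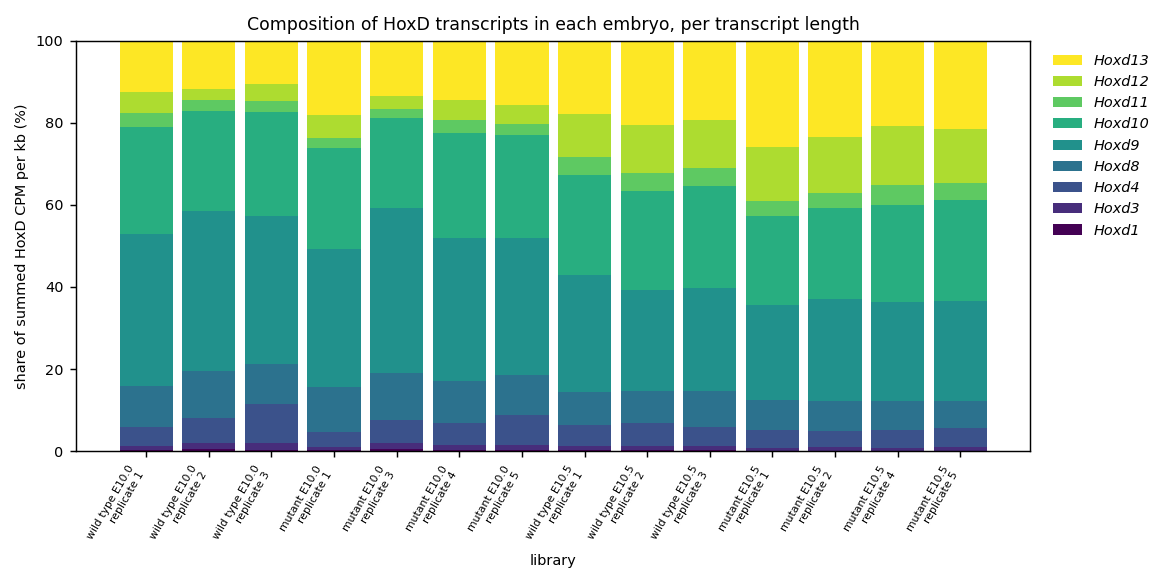
Share of each HoxD gene (colours) in the summed HoxD CPM per kb (vertical axis, %) of each of the 14 libraries (horizontal axis). The Hoxd11 to Hoxd13 segments at the top make up 17.0% to 26.2% of the column at E10.0 and 32.7% to 42.6% at E10.5.

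From E10.0 to E10.5 the 5' genes rose and the central genes Hoxd8 and Hoxd9 fell, in wild-type and in mutant forelimb buds. A gene was called differentially expressed (DEG) at an FDR of at most 0.1 in edgeR's exact test and a fold change of at least 1.2. Among the 9 members, 3 were higher and 2 lower at E10.5 in wild type, where 5.39% of the 12393 genes tested were called higher and 4.74% lower. In mutants 3 members were higher and 3 lower, against 10.8% and 8.4% of the genes tested. Of these 3 lower members, Hoxd1 passed the filter on low levels only through its E10.0 libraries, so its fall was favoured by the filter and only the other 2 can be read against the background. Hoxd11, Hoxd12 and Hoxd13 were called higher in both genotypes, as were 3.93% of all genes tested, and Hoxd8 and Hoxd9 lower in both, as were 3.06%. The embryos of the stages did not overlap for 6 members in wild type (background 37.0%) and 6 in mutants (20.0%). The 6 in mutants include Hoxd1, which for the same reason cannot be read against the background. The median log2 fold change of the members was -0.48 in wild type and -0.28 in mutants, and that of all genes tested -0.01 in each.

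Hoxd12, which is expressed in the posterior-distal mesenchyme, had the largest rise of the members. Its levels were 19.7, 11.2 and 18.3 CPM in the wild-type embryos at E10.0 and 37.3, 44.9 and 44.6 CPM at E10.5. The mutants had 24.2, 11.3, 19.1 and 20.1 CPM at E10.0 and 61.6, 57.4, 60.1 and 57.2 CPM at E10.5. Every E10.5 embryo was thus above every E10.0 embryo of its genotype, with a log2 fold change of 1.37 ± 0.22 (SE; FDR = 1.17e-08) in wild type and 1.66 ± 0.19 (FDR = 1.04e-17) in mutants. For Hoxd13, the most 5' member, the wild-type values were 44.8, 44.5 and 44.0 CPM at E10.0 and 60.1, 75.3 and 69.0 CPM at E10.5. In the mutants they were 72.6, 47.8, 55.0 and 64.5 CPM, and then 115, 93.9, 82.1 and 90.0 CPM. The stages did not overlap within a genotype, and the rise was 0.62 ± 0.14 on the log2 scale in wild type (FDR = 4.97e-04) and 0.67 ± 0.12 in mutants (FDR = 1.27e-06). Hoxd11, which acts with Hoxa11 in the forearm, was at 17.8, 15.2 and 17.6 CPM in wild type at E10.0 and at 22.9, 25.2 and 24.8 CPM at E10.5. Mutant Hoxd11 levels were 16.0, 11.4, 18.1 and 18.0 CPM, and then 24.6, 22.9, 28.7 and 27.4 CPM. Here too the stages were separated in each genotype, with log2 fold changes of 0.53 ± 0.14 in wild type (FDR = 0.00938) and 0.71 ± 0.12 in mutants (FDR = 1.51e-06). The wild-type call of Hoxd11 was lost without the E10.0 replicate 2 (0.46, FDR = 0.138).

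**Figure D3:**
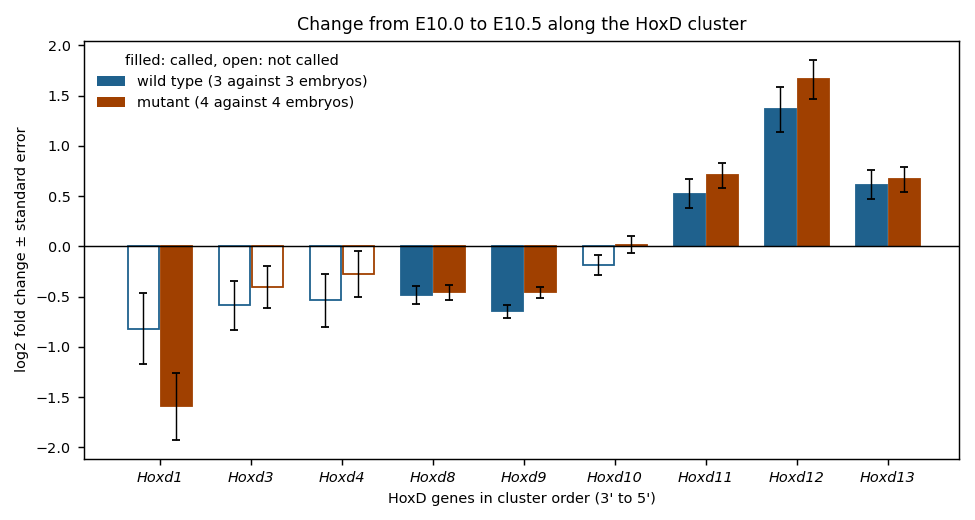
Log2 fold change from E10.0 to E10.5 (vertical axis) of each HoxD gene in cluster order (horizontal axis) for wild-type (blue) and mutant (brown) forelimb buds; bars are the edgeR estimates, error bars the standard error, and filled bars are called. The sign turns between Hoxd9, at -0.65 and -0.46, and Hoxd11, at 0.53 and 0.71, with Hoxd10 near 0.

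Hoxd9 fell from 117, 130.1 and 134 CPM in wild type at E10.0 to 84.5, 79.4 and 79.5 CPM at E10.5. In mutants it went from 119, 124, 116 and 122 CPM to 90.2, 87.1, 83.2 and 88.7 CPM. No embryo of the later stage reached the earlier range, and Hoxd9 also had the smallest replicate variation of the 9 members (biological coefficient of variation 0.0694, against 0.253 for Hoxd1). The log2 fold change was -0.65 ± 0.06 in wild type (FDR = 9.89e-12) and -0.46 ± 0.05 in mutants (FDR = 1.96e-08). Hoxd8, the most 3' of the central genes, was at 38.1, 46.5 and 43.6 CPM in wild type at E10.0 and at 29.0, 30.0 and 32.9 CPM at E10.5. Its mutant values were 46.9, 42.6, 41.2 and 42.3 CPM, followed by 34.7, 31.7, 30.0 and 29.6 CPM. These groups were likewise separate, and Hoxd8 fell by 0.48 ± 0.09 on the log2 scale in wild type (FDR = 3.08e-04) and by 0.46 ± 0.08 in mutants (FDR = 1.73e-05). In bulk tissue, fewer cells that express a gene and less RNA of it per cell cannot be told apart.

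Hoxd10 lay between the rising and the falling genes in position and in its values. It was at 99.7, 99.9 and 115 CPM in wild type at E10.0 and 87.6, 94.0 and 95.2 CPM at E10.5, and in mutants at 106, 82.9, 104 and 111 CPM and then 103, 94.8, 101 and 109.6 CPM. The wild-type embryos of the stages did not overlap and those of the mutants did, and neither change passed the test (log2 fold change -0.18 ± 0.10, FDR = 0.305, and 0.02 ± 0.08, FDR = 0.932).

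The 3' genes were lower on average at E10.5, but most of these differences were within the spread of the E10.0 embryos. Hoxd4 was at 16.9, 24.4 and 41.1 CPM in wild type at E10.0 and at 17.6, 21.7 and 17.5 CPM at E10.5, with mutants at 15.3, 20.6, 21.3 and 30.7 CPM and then 19.3, 16.3, 17.1 and 19.9 CPM. Hoxd3 was at 4.68, 7.10 and 10.3 CPM and then 4.64, 4.95 and 5.08 CPM in wild type, and at 3.93, 6.68, 6.25 and 7.48 CPM and then 4.45, 4.74, 4.30 and 4.88 CPM in mutants. For both genes the E10.0 embryos were far more spread than the E10.5 embryos, and the stages overlapped. The log2 fold changes were -0.58 ± 0.24 (FDR = 0.127) and -0.40 ± 0.21 (FDR = 0.183) for Hoxd3 in wild type and mutants, and -0.54 ± 0.27 (FDR = 0.172) and -0.28 ± 0.23 (FDR = 0.406) for Hoxd4. Without the E10.0 wild-type replicate 1, which had the lowest level of both, the wild-type changes passed the test (Hoxd3 -0.83, FDR = 0.00830; Hoxd4 -0.79, FDR = 0.0129). Hoxd3 also passed in wild type without the E10.0 mutant replicate 1 (-0.58, FDR = 0.0629), and in mutants without that embryo (-0.56, FDR = 0.0276). Hoxd3 and Hoxd4 share 1725 annotated exon bases, of 5792 and 2560, and reads that fell on both genes were not counted, so their levels are uncertain. Hoxd3 shares a further 347 bases with the antisense RNA 1700109F18Rik, which the unstranded counting could not separate.

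Hoxd1 was close to the detection limit set for testing. It had 0.969, 1.72 and 0.682 CPM in wild type at E10.0 and 0.865, 0.530 and 0.525 CPM at E10.5, and in mutants 1.08, 1.68, 0.874 and 0.959 CPM and then 0.498, 0.293, 0.368 and 0.358 CPM. The mutant stages did not overlap, with a log2 fold change of -1.59 ± 0.33 (FDR = 3.65e-05), and the wild-type stages did (-0.82 ± 0.35, FDR = 0.162). The wild-type change passed the test without the E10.0 replicate 3 (-1.06, FDR = 0.0679) or the E10.5 replicate 1 (-1.08, FDR = 0.0844). Hoxd1 reached the required 1 CPM in only 3 libraries, 1 wild-type and 2 mutant embryos at E10.0, so that it was tested only because its E10.0 levels were the higher ones. The other 8 members reached 1 CPM in all 14 libraries.

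Between genotypes, Hoxd13 was the only member called, and it was higher in mutant forelimb buds at both stages. At E10.0 this was 1 of 9 members, against a background of 6.61% of genes called (3.33% higher), and at E10.5 again 1 of 9, against 3.73% (2.19% higher). Of all genes tested, 0.839% were called higher at both stages. The fold change was 1.35 at E10.0 (log2 0.43 ± 0.13, FDR = 0.0312) and 1.40 at E10.5 (log2 0.48 ± 0.13, FDR = 0.0114). The highest wild-type value at E10.0 was 44.8 CPM and the lowest mutant value 47.8 CPM, and at E10.5 these were 75.3 and 82.1 CPM, so the genotypes were separated by small gaps. The E10.0 call was lost when any of the wild-type replicates was left out (replicate 1: 0.44, FDR = 0.103; replicate 2: 0.43, FDR = 0.101; replicate 3: 0.44, FDR = 0.175). It was also lost without mutant replicate 1 (0.34, FDR = 0.114) or mutant replicate 5 (0.40, FDR = 0.115). The E10.5 call was lost without wild-type replicate 1 (0.41, FDR = 0.175), the lowest of that group, and with the replicate number as a block (0.50, FDR = 0.117).

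Hoxd12 was higher in every mutant than in every wild-type embryo at E10.5 (57.2 to 61.6 against 37.3 to 44.9 CPM), a log2 difference of 0.48 ± 0.20 that did not pass the test (FDR = 0.221). The groups did not overlap for 3 of 9 members at this stage, Hoxd12 and Hoxd13 higher (background 6.59%) and Hoxd1 lower (6.4%) in mutants. At E10.0 they did not overlap for 1 of 9, Hoxd13 (background 17.8%). Hoxd12 passed the test when the E10.5 groups were fitted apart (0.49, FDR = 4.66e-05) and without the E10.0 mutant replicate 3 (0.48, FDR = 0.0346). At E10.0, Hoxd12 was at 16.4 ± 4.54 CPM in wild type and 18.7 ± 5.41 in mutants (log2 0.19 ± 0.21, FDR = 0.677).

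Hoxd1 at E10.5 had a log2 difference between mutant and wild type of -0.73 ± 0.37 (FDR = 0.472) at levels under 1 CPM. The genotype differences of Hoxd8 to Hoxd11 were small at both stages. They ran from -0.09 ± 0.13 (Hoxd11) to 0.02 ± 0.08 (Hoxd8) at E10.0 and from 0.04 ± 0.08 (Hoxd8) to 0.14 ± 0.09 (Hoxd10) at E10.5, and none passed the test. Hoxd3 and Hoxd4 differed by -0.27 ± 0.22 and -0.32 ± 0.25 at E10.0 and by -0.09 ± 0.23 and -0.06 ± 0.25 at E10.5. The members' median was -0.06 at E10.0 and 0.09 at E10.5, beside -0.02 and -0.01 over all genes tested.

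**Figure D4:**
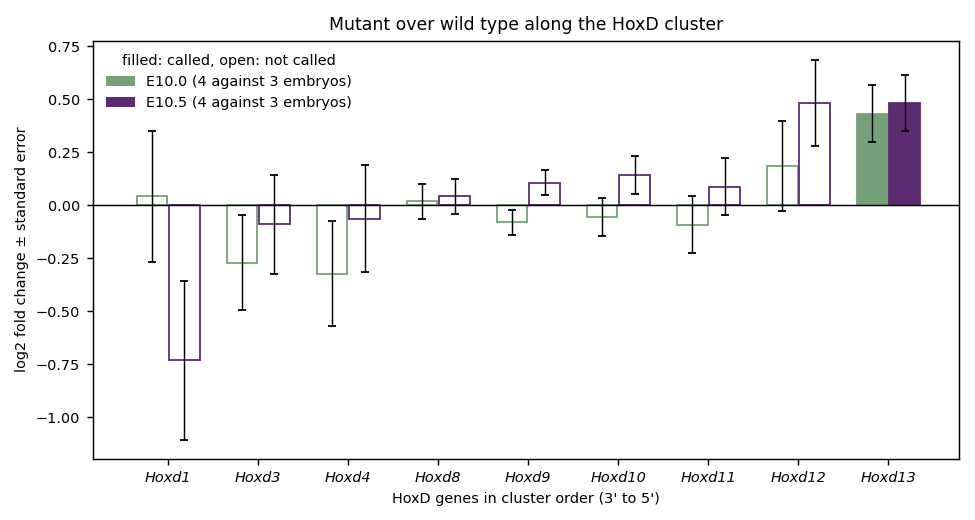
Log2 fold change of mutant over wild type (vertical axis) for each HoxD gene in cluster order (horizontal axis) at E10.0 (green) and E10.5 (purple); bars are the edgeR estimates, error bars the standard error, and filled bars are called. The filled bars are those of Hoxd13, at 0.43 and 0.48, and Hoxd12 has the same height at E10.5 with a wider error.

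The genotypes did not differ detectably in how the members changed with stage. The interaction of stage and genotype, from edgeR's quasi-likelihood test, called 0 of the 9 members (background 0.186%), with 1 at an unadjusted p under 0.05 (Hoxd9), and DESeq2 called 0. The interaction term was 0.05 ± 0.19 on the log2 scale for Hoxd13 (FDR = 0.982) and 0.30 ± 0.29 for Hoxd12 (FDR = 0.957). For Hoxd9 it was 0.19 ± 0.08 (FDR = 0.822), a smaller fall in mutants. Hoxd1 had the largest term in size, -0.77 ± 0.49 (FDR = 0.950).

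Embryos of one group differed along the cluster at E10.0. Wild-type replicate 2 had the highest Hoxd1 (1.72 CPM) and the lowest Hoxd11 and Hoxd12 (15.2 and 11.2 CPM) of its group. Mutant replicate 3 had likewise the highest Hoxd1 (1.68 CPM) and the lowest Hoxd10, Hoxd11, Hoxd12 and Hoxd13 of its group (82.9, 11.4, 11.3 and 47.8 CPM). In each genotype, then, the E10.0 embryo with the most Hoxd1 had the least Hoxd11 and Hoxd12. Wild-type replicate 3 instead had the highest Hoxd3 and Hoxd4 of all 14 libraries (10.3 and 41.1 CPM).

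The HoxA paralogues share ancestry and part of their limb functions with the HoxD genes, and Hoxa13 acts with Hoxd13 in the hand plate. Of 7 HoxA genes tested, 0 were called between genotypes at either stage by edgeR's exact test, with 1 at an unadjusted p under 0.05 at each stage, and DESeq2 and the quasi-likelihood test also called 0. Hoxa13 at E10.0 (-1.05 ± 0.49, FDR = 0.264) was called lower in mutants without their replicates 4 and 5 (-2.28, FDR = 0.0102) and with the replicate number as a block (FDR = 0.0967), at levels under 0.3 CPM. With stage, Hoxa13 rose from 0.219 ± 0.0553 CPM (n=3) to 2.78 ± 0.529 (n=3) in wild type and from 0.118 ± 0.0898 (n=4) to 2.81 ± 0.527 (n=4) in mutants. Its log2 fold changes were 3.64 ± 0.36 (FDR = 1.98e-25) and 4.69 ± 0.35 (FDR = 1.07e-43). Hoxa13 was under 1 CPM in every E10.0 library and was tested only through its E10.5 levels. Hoxd13 was thus present at E10.0 at a level at which Hoxa13 was nearly absent.

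In mutants Hoxa10 (0.46 ± 0.10, FDR = 2.47e-04) and Hoxa11 (0.28 ± 0.07, FDR = 0.00769) also rose with stage, while in wild type their log2 changes of 0.22 ± 0.12 and 0.15 ± 0.08 were not called. The Hoxa11 call fell to a fold under 1.2 without the mutant E10.0 replicate 3 or 4 or the E10.5 replicate 1 (0.25, 0.25 and 0.26). Toward the 3' end Hoxa4, named after its values were seen, fell in mutants (-0.44 ± 0.17, FDR = 0.0595). Hoxa9 was not called (-0.32 ± 0.21 in wild type and -0.21 ± 0.18 in mutants). Hoxa9 was called lower in wild type without mutant replicates 4 and 5 (-0.31, FDR = 0.0339), when wild type was fitted apart (-0.31, FDR = 0.0248) and with the replicate number as a block (-0.32, FDR = 0.0625). The Hoxa4 call was lost without mutant E10.0 replicate 3 or 4 or E10.5 replicate 2 or 5 (FDR = 0.158 to 0.314), without mutant replicates 4 and 5 (FDR = 0.248) and with the mutants fitted apart (FDR = 0.114). In all, 1 of the 7 HoxA genes was called higher and 1 lower with stage in wild type, and 3 higher and 2 lower in mutants, not all of which are named here. Of all genes tested, 5.39% were called higher and 4.74% lower in wild type, and 10.8% and 8.4% in mutants. The HoxA genes called higher include Hoxa13 in both genotypes. Its rise was favoured by the filter and cannot be read against these shares.

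Each HoxD gene was also set beside its HoxA paralogue as a log2 ratio within each library, computed from CPM + 0.5. Hoxa13 was below that constant in every E10.0 library (0.0342 to 0.274 CPM), so its ratio at this stage depends on the constant. The log2 ratio of Hoxd13 to Hoxa13 was 5.97 ± 0.11 (SD, n=3) in wild type and 6.61 ± 0.33 (n=4) in mutants at E10.0. The difference of 0.64 (0.53 with a constant of 1) gave p = 0.0286 in an exact two-sided permutation test, the smallest value that 3 against 4 embryos allow, and 0.229 after Benjamini-Hochberg adjustment over the 8 ratios tested. At E10.5 the ratio was 4.39 ± 0.09 and 4.85 ± 0.38, a difference of 0.46 (exact permutation p = 0.143, adjusted 0.343). Group 9, 10 and 11 ratios differed between genotypes by -0.00070 to 0.16 at E10.0 and 0.07 to 0.12 at E10.5. None of the 8 ratios passed after adjustment. A ratio that reaches the smallest possible p alone adjusts to 0.229, so these tests could not have called a single ratio.

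The nearest tested gene on each side of the cluster was called neither with stage nor between genotypes. Lnp, on the 5' side, was at 57.9 to 60.6 CPM and Mtx2, on the 3' side, at 91.3 to 107 CPM in the group means, and neither was called in any of the 4 comparisons. Evx2, the homeobox gene beside Hoxd13 that is active later in the digits, was below the filter at 0.00860 to 0.106 CPM. Its group means at E10.0 and E10.5 were 0.0129 and 0.0642 CPM in wild type and 0.00860 and 0.106 CPM in mutants. This rise near the floor was not tested. Of the 9 flanking genes tested, the only one called was Chrna1, which encodes a muscle acetylcholine receptor subunit and lies farther out on the same chromosome. It rose in mutants from 1.77 ± 0.345 to 7.59 ± 1.89 CPM at E10.0 (log2 2.10 ± 0.21, FDR = 2.78e-18) and from 2.94 ± 0.427 to 10.04 ± 1.22 CPM at E10.5 (1.77 ± 0.20, FDR = 4.09e-14). In wild type it also rose with stage (0.73 ± 0.22, FDR = 0.0278), a call lost without the E10.0 replicate 2 (FDR = 0.249) or the E10.5 replicate 3 (FDR = 0.224).

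SHH signals from the posterior margin of the limb bud, and its pathway and the regulators of the posterior domain were read from a list of 11 genes. Shh itself rose with stage as the 5' HoxD genes did, from 3.03 ± 0.995 to 6.96 ± 0.388 CPM in wild type (log2 1.2 ± 0.27, FDR = 2.74e-04) and from 3.60 ± 1.16 to 8.96 ± 1.95 CPM in mutants (1.31 ± 0.23, FDR = 2.94e-07). Its genotype differences, 0.25 ± 0.26 at E10.0 and 0.37 ± 0.24 at E10.5, were not called. At E10.0, 2 of the 11 genes were higher in mutants, the SHH receptor gene Ptch1 (0.38 ± 0.10, FDR = 0.0141) and the antagonist gene Hhip (0.50 ± 0.17, FDR = 0.0920), both named after their values were seen, and the BMP antagonist gene Grem1 was lower (-1.22 ± 0.13, FDR = 1.73e-15). At E10.5 Hhip was higher (0.62 ± 0.17, FDR = 0.0245), and Grem1 (-1.09 ± 0.13, FDR = 9.34e-13) and Tbx3 (-0.56 ± 0.08, FDR = 2.09e-07), a T-box repressor gene of the limb margins, were lower. The Ptch1 call was lost without the wild-type E10.0 replicate 1 (FDR = 0.110) or replicate 3 (FDR = 0.161). The Hhip call at E10.0 was lost when any of 7 libraries was left out (FDR = 0.102 to 0.387), namely wild-type E10.0 replicates 1 and 3, mutant E10.0 replicates 1, 4 and 5 and mutant E10.5 replicates 2 and 5, and at E10.5 without mutant replicate 1 (FDR = 0.114) or wild-type replicate 1 or 2 (FDR = 0.193 and 0.234). Hhip also lost its E10.0 call with the E10.0 groups fitted apart, without mutant replicates 4 and 5, in the quasi-likelihood test and with a replicate block (FDR = 0.122 to 0.289), and its E10.5 call with the block (FDR = 0.203). Gli3, which encodes the repressor that limits 5' HoxD expression to the posterior bud, fell with stage in mutants (-0.45 ± 0.10, FDR = 3.53e-04), but not without their replicates 4 and 5 (-0.27, FDR = 0.168), and was at -0.30 ± 0.12 in wild type (FDR = 0.114), where it passed without those replicates (-0.29, FDR = 0.0585), with wild type fitted apart (-0.29, FDR = 0.0426) and without mutant E10.0 replicate 1 or 5 or wild-type E10.5 replicate 1 (-0.29, -0.30 and -0.41, FDR = 0.0739, 0.0963 and 0.0260). Hand2, the posterior activator gene, was called in none of the 4 comparisons, with group means of 54.6 to 66.1 CPM.

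TALE homeodomain proteins of the MEIS and PBX families bind DNA together with HOX proteins. Of 9 such genes, 0 were called between genotypes at E10.0 by edgeR's exact test (4 at an unadjusted p under 0.05, and 1 called by DESeq2), and 2 were called lower in mutants at E10.5, among them Meis3 (-0.80 ± 0.18, FDR = 0.00138). The gene called by DESeq2 at E10.0 was Pknox2 (0.29, FDR = 0.0972). With stage, Meis2 (-0.37 ± 0.06, FDR = 6.53e-05) and Meis3 (-1.07 ± 0.17, FDR = 6.06e-08) fell in mutants, and 0 of 9 were called in wild type by edgeR's exact test (2 at an unadjusted p under 0.05). Pknox2 was called higher at E10.5 in wild type by DESeq2 (0.35, FDR = 0.0354) and by edgeR's quasi-likelihood test (0.35, FDR = 0.0766). It also passed the exact test there without mutant replicates 4 and 5 (0.36, FDR = 0.0893). Among 21 genes of Polycomb and Trithorax complexes and of chromatin architecture, which keep Hox genes silent or active, Mll1 was higher in mutants at E10.0 (0.58 ± 0.19, FDR = 0.0322), Bmi1 rose with stage in wild type (0.33 ± 0.12, FDR = 0.0745) and Cbx8 rose with stage in mutants (0.47 ± 0.15, FDR = 0.0204). Each of these 3 calls was lost when single libraries were left out, Mll1 without wild-type E10.0 replicate 3 (FDR = 0.389) or mutant replicate 5 (FDR = 0.176) and Cbx8 without mutant E10.0 replicate 3 (FDR = 0.121) or E10.5 replicate 4 (FDR = 0.107). Bmi1 lost it without any wild-type library except the E10.5 replicate 1 (FDR = 0.137 to 0.444). The quasi-likelihood test called neither Mll1 (FDR = 0.119) nor Bmi1 (FDR = 0.124), and Mll1 was also lost without mutant replicates 4 and 5 (FDR = 0.144) and with a replicate block (FDR = 0.179).

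Markers of other cell types were read beside the Hoxd13 difference. Neural tissue, which expresses HoxD genes in the trunk, left no more than 0.570 CPM summed over 5 neural tube genes in any library. The 4 mesothelium and body wall genes summed to 1.63 to 3.17 CPM in wild type and 8.58 to 18.9 CPM in mutants at E10.0, and to 4.13 to 6.76 and 1.5 to 4.04 CPM at E10.5, with the defining gene Wt1 higher in mutants at E10.0 (2.38 ± 0.41) and lower at E10.5 (-1.42 ± 0.41, not called without mutant replicates 4 and 5, in the quasi-likelihood test or with a replicate block, FDR = 0.123 to 0.203). Of 7 limb mesenchyme genes, 4 were lower in mutants at each stage, with summed levels of 1305 to 1480 against 1055 to 1231 CPM at E10.0 and 1411 to 1467 against 1097 to 1207 CPM at E10.5. Of all 12393 genes tested, 406 were called lower at E10.0 and 191 at E10.5. Prrx2 (-1.01 ± 0.13 and -0.83 ± 0.13) and Lhx2 (-0.47 ± 0.11 and -0.54 ± 0.11) were among the limb mesenchyme genes called. The paper reports both as SMAD4 target genes reduced in mutants, so they do not measure the amount of mesenchyme. Fgf10, on the same list, was at 53.8 to 62.6 CPM in wild type and 58.4 to 67.8 CPM in mutants at E10.0. At E10.5 it was at 50.4 to 55.3 and 45.9 to 50.1 CPM.

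The 7 somite and sclerotome genes summed to 43.4 to 49.4 CPM in wild type and 50.6 to 59.5 CPM in mutants at E10.0, and to 78.3 to 95.4 and 83.4 to 93.4 CPM at E10.5. The list members Pax9, Uncx and Nkx3-2 were below the filter, at no more than 0.676, 0.443 and 0.0219 CPM in any library. A change of Pax1 alone therefore does not measure the amount of sclerotome. Among the 4 list members tested, Pax1 was lower in mutants at both stages (-2.87 ± 0.36 and -2.61 ± 0.29), and Meox2, also a gene of limb muscle precursors, was higher at E10.5 (44.4 ± 4.26 against 63.5 ± 3.10 CPM, log2 0.51 ± 0.12, FDR = 0.00324), though not with a replicate block (FDR = 0.141). Meox2 thus differed at E10.5 in the direction of Hoxd13 and by a similar amount. Meox1 was higher in mutants at E10.0 (0.40 ± 0.14, FDR = 0.0788), a call lost without mutant replicate 3 or 4, without wild-type replicate 1 or 3 and in the quasi-likelihood test (FDR = 0.128 to 0.395).

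Of the limb-type genes, Tbx4 was higher in mutants at E10.5 (7.80 ± 1.04 against 13.5 ± 1.70 CPM, 0.79 ± 0.28, FDR = 0.0955), a call lost without any single library of that stage (FDR = 0.113 to 0.441). The Tbx4 call was also lost without mutant replicates 4 and 5 (0.68, FDR = 0.307). The same held without the filter, in the quasi-likelihood test and with a replicate block (FDR = 0.128 to 0.382). Tbx5 was lower at E10.0 (-0.31 ± 0.10, FDR = 0.0698), a call lost without mutant E10.0 replicate 1 or 3, wild-type E10.0 replicate 1 or 3 or wild-type E10.5 replicate 3 (FDR = 0.103 to 0.542). The Tbx5 call was also lost with the E10.0 groups fitted apart, without the filter, with Rn45s left out and in the quasi-likelihood test (FDR = 0.114 to 0.147). Of 11 ectoderm genes only the keratin gene Krt5 was called, lower in mutants at E10.0 (-0.40 ± 0.13, FDR = 0.0485), and not without mutant replicate 1 or 5 or any wild-type embryo of that stage (FDR = 0.106 to 0.208). The quasi-likelihood test did not call Krt5 either (FDR = 0.107). Of 4 macrophage genes 3 were tested, and only Ptprc was called, higher in mutants at E10.0 (0.94 ± 0.32, FDR = 0.0687). The call was lost without mutant replicate 1 or 5 or wild-type replicate 2 or 3 (FDR up to 0.403). It was also lost in the quasi-likelihood test (FDR = 0.123). At E10.0 the 4 genes summed to 2.54 to 4.48 CPM in wild type and 4.14 to 6.27 CPM in mutants. Among them Cd68 was at 1.43 to 2.36 CPM in wild type and 1.06 to 2.02 CPM in mutants. The neural crest gene Erbb3 was lower at E10.5 (-0.42 ± 0.10, FDR = 0.0394), and not without mutant replicate 2, 4 or 5 or any wild-type embryo of that stage (FDR = 0.102 to 0.2). The Erbb3 call was also lost without both mutant replicates 4 and 5 (-0.40, FDR = 0.182) and with a replicate block (-0.44, FDR = 0.103). Of 12 genes tested in the lists of endothelium, primitive blood and migrating muscle precursors, 0 were called between genotypes by edgeR's exact test or quasi-likelihood test, with 1 (E10.0) and 3 (E10.5) at an unadjusted p under 0.05, and DESeq2 called only the endothelial receptor gene Kdr, for the earlier stage. The part of these marker differences in the Hoxd13 result was not tested.

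For 4 members spread over the cluster, the genes most like them were found as those with the smallest root mean square (RMS) difference between centred log2(CPM + 1) profiles over the 14 libraries. For Hoxd13, whose own profile had an RMS spread of 0.42, the closest was Homer2 (0.137). Homer2 had group means of 21.8 and 24.7 CPM at E10.0 and 33.2 and 46.4 CPM at E10.5, in wild type and mutants. The cluster member most like Hoxd13 was Hoxd11 (0.294). The genes closest to Hoxd9 were Lrp8 (0.0886) and Psat1 (0.0968), close to Hoxd8 (0.0983). Hoxd11 had Rgs8 (0.0855) and Syt11 (0.109), and Hoxd4 had Leng8 (0.163) and BC037034 (0.168), behind its neighbour Hoxd3 (0.135), with which it shares exons. Rgs8 had group means of only 0.788 and 0.774 CPM at E10.0 and 1.65 and 1.79 CPM at E10.5, in wild type and mutants. Its likeness to Hoxd11 therefore depends on the added constant of 1. These likenesses are descriptions over 14 libraries of 4 groups.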

How the data were processed

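RNA-seq was performed on the forelimb buds of single embryos (polyA libraries, unstranded, single reads). Per the labels and the study's methods, the authors aligned reads to mm9 with TopHat 2.0.13, kept uniquely mapped reads and deposited raw counts per gene symbol from HTSeq, without strand. Ambiguous reads (1.49% to 1.75%) and reads outside genes were not counted and stayed out of library sizes.

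The deposited counts were tested over the whole table as the study's methods state. Symbols on chromosomes X, Y and M (1041 of 23166 placed) were left out, and genes were kept (12393) that reached 1 CPM or more in 3 samples or more. TMM factors (0.934 to 1.035), common and tag-wise dispersion (prior 10 degrees of freedom, all 14 samples) and exact tests came from edgeR 4.0.16 in R 4.3.3, with Benjamini-Hochberg adjustment over all genes tested. Standard errors and the interaction came from its quasi-likelihood fit. The tests across genes were tested on simulated data. Stage and genotype comparisons share groups of embryos. The members and lists were chosen with earlier results of these data known. Named were all members, Smad4, the paralogues, flanking and regulator genes of fixed lists with the smallest p-values, and the 2 genes most like 4 members, some of which are not reported here. Replicates are separate embryos, and no libraries of a group agreed within sampling noise.

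Gene positions came from GENCODE vM1 (mm9) and promoters from RefSeq (GRCm38.p6), matched to mm9. Alternatives were DESeq2 1.42.0, the quasi-likelihood test, RLE factors, other filters, groups fitted apart, single libraries left out and a replicate block. Same-numbered mutants deviated together across stages (correlations 0.269 to 0.611 over 3 pairs), as did replicates 4 and 5 with each other's number (0.286 and 0.383). So did the E10.0 replicates 1 and 3 with the E10.5 replicate 2 (0.349 and 0.319). With these positive values between different numbers, the pattern was not one of the number alone. Replicates 1 to 3 correlated negatively with replicates 4 and 5 (-0.587 to -0.174). Deviations from a group mean cancel within the group, which favours such negative values. The block changed no member's call in mutants across stages.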

Additional observations from a re-analysis of the deposited data

How the results depend on the processing

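Of the 13 calls among the members, 10 held under every alternative tried in which the gene was tested, and none reversed. Hoxd13 at E10.0 and E10.5 and Hoxd11 in wild type were lost in some. Hoxd1 could not be tested without wild-type replicate 2 or mutant replicate 1 or 3 of E10.0, since it then failed the filter. Leaving out single libraries gave 0 to 1 members called between genotypes at E10.0 and 0 to 2 at E10.5. The replicate block gave 0 at E10.5, and fitting the E10.5 groups apart gave 2. For the genotypes within a stage and for wild type across stages the samples share only a number, with correlations of same-numbered samples from -0.283 to 0.174. No other member call between genotypes was lost under the block. It raised the genes called at E10.0 from 819 to 1961, lowered them at E10.5 from 462 to 280, and moved Hoxd11 at E10.5 to -0.10 and Hoxa13 to -0.29. In wild type across stages the block added a call of Hoxd3 (-0.53, FDR = 0.0903), as did fitting wild type apart (-0.58, FDR = 0.0748).

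Without mutant replicates 4 and 5, 2018 genes were called at E10.0, and at E10.5 Hoxd11 was at -0.024 and Hoxa13 at -0.16. The log2 ratios of Hoxd9 to Hoxa9 and Hoxd11 to Hoxa11 were then 0.32 and -0.22 at E10.0, and that of Hoxd11 to Hoxa11 -0.067 at E10.5. Fitting wild type apart gave 1932 genes called with stage against 1256. The interaction called 23 genes, 87 with DESeq2, 39 without the filter and 6 without those replicates. Leaving out single libraries gave 254 to 1062 genes called between genotypes at E10.0, 286 to 516 at E10.5, 484 to 1515 with stage in wild type and 7 to 34 for the interaction.

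Signs of values that were not called turned when single libraries were left out. The ranges at E10.0 between genotypes were -0.20 to 0.15 for Hoxd1, -0.51 to 0.057 for Hoxd3, -0.58 to 0.10 for Hoxd4, -0.057 to 0.084 for Hoxd8, -0.10 to 0.027 for Hoxd10, -0.16 to 0.038 for Hoxd11 and -0.026 to 0.37 for Hoxd12. At E10.5 they were -0.11 to 0.055 for Hoxd4, -0.00057 to 0.10 for Hoxd8 and -0.13 to 0.13 for Hoxa13. With stage in mutants, Hoxd10 ran from -0.067 to 0.065. The interaction ran from -0.14 to 0.42 for Hoxd3, -0.15 to 0.51 for Hoxd4, -0.041 to 0.099 for Hoxd8 and -0.053 to 0.15 for Hoxd13. The ratio of Hoxd9 to Hoxa9 ran from -0.17 to 0.14 at E10.0 and -0.057 to 0.18 at E10.5, and that of Hoxd11 to Hoxa11 from -0.061 to 0.15 at E10.0. The cause of these changes was not tested.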
